A study of Mus musculus with 2 samples.

Results

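The cells described here are Pdgfra-positive stromal cells of the mouse intestinal lamina propria that carry RNA of a small set of genes: Wif1, Itgbl1, Masp1, Ntrk2 and Inhba. A cell was taken as a member when its barcode held at least 3000 unique molecular identifiers (UMIs, counts of single RNA molecules), at most 20% of them mitochondrial, at least 1 UMI of Pdgfra, none of Ptprc or Pecam1, and at least 1 UMI of at least 3 of the 5 genes. This gave 166 members among 6379 Pdgfra-positive cells without Ptprc and Pecam1, and among 13168 cells that passed the UMI and mitochondrial limits. The libraries were 1 of ApcMin/+;Lef1 +/+ mice, called ApcMin, and 1 of ApcMin/+;Lef1 fl/fl; Villin-Cre mice, called VApcMinL, both C57BL/6 and 11 weeks old. All mice thus carried the ApcMin allele, and there was no library with wild-type Apc. Villin-Cre acts in the intestinal epithelium, so the stromal cells themselves were not the target of the Lef1 deletion. Lef1 had 0 UMIs in the ApcMin members and 1 in the VApcMinL members, so its level in them does not check the genotype. Cells were sorted as DAPI-, Ter119-, Epcam- and CD45- and run on the 10x Chromium 3′ v3 platform. How many mice went into each library is not given in the sources used here. As each genotype is a single library, no p-value is given for any comparison, all intervals are 95% intervals of counting error alone, and genotype, mouse, dissection and sort cannot be told apart.

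Mesenchymal cells that lie close to the intestinal epithelium send and limit the signals by which crypts are kept: Wnt ligands and R-spondins drive stem cells near the crypt base, and bone morphogenetic proteins (BMPs) drive differentiation towards the villus. Secreted inhibitors shape these gradients. Wif1 binds Wnt ligands outside the cell, Inhba encodes the activin A subunit of the TGF-beta family, Ntrk2 is the receptor of the neurotrophin BDNF, Masp1 is a protease of the lectin pathway of complement, and Itgbl1 is a secreted protein related to integrin beta chains.

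The members came unequally from the libraries. In ApcMin, 41 of 3054 Pdgfra-positive cells were members (1.34%, exact Clopper-Pearson interval 0.965% to 1.82%), and in VApcMinL 125 of 3325 (3.76%, 3.14% to 4.46%), a ratio of 2.80 (exact conditional interval 1.95 to 4.09). As counted, the libraries lay close together in cells with 2 or 3 of the 5 genes and apart in cells with 4 or 5. Cells with 2 of the genes, just outside the rule, numbered 204 in ApcMin and 222 in VApcMinL, 6.68% of Pdgfra-positive cells in each, and cells with 3, just inside it, 35 and 45 (1.15% and 1.35%). Cells with at least 4 numbered 6 and 80, which is 0.196% (0.0721% to 0.427%) and 2.41% (1.91% to 2.99%), a ratio of 12.2 (5.39 to 34.4). The full set of 5 was found in 1 ApcMin cell and 45 VApcMinL cells. All of these shares come from the genes of the rule and are a description.

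The members were sampled to a like depth in both libraries. They held a median of 14394 UMIs in ApcMin (range 6574 to 31162) and 14845 in VApcMinL (3388 to 31573), against 13208 and 10511 in the other Pdgfra-positive cells. With each cell thinned to 3000 UMIs, 7 of 2558 ApcMin cells and 56 of 2793 VApcMinL cells met the rule, 0.274% and 2.01%, a ratio of 7.33 (3.33 to 19.1). Thinned cells with 2 genes made up 1.68% in ApcMin and 2.11% in VApcMinL. Those with 3 genes made up 0.235% and 0.967% (6 and 27 cells), so the libraries were not close at 3 genes after thinning. The most frequent combination in ApcMin was Itgbl1, Masp1 and Ntrk2, in 19 of the 41 members, followed by Itgbl1, Ntrk2 and Inhba in 13. In VApcMinL it was all 5 genes, in 45 of 125. No barcode was a member in both libraries, and 18 barcodes were cells in both. A further 2 ApcMin and 16 VApcMinL cells met the rule but held Ptprc or Pecam1, and 0 and 1 met it without Pdgfra.

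**Figure D1:**
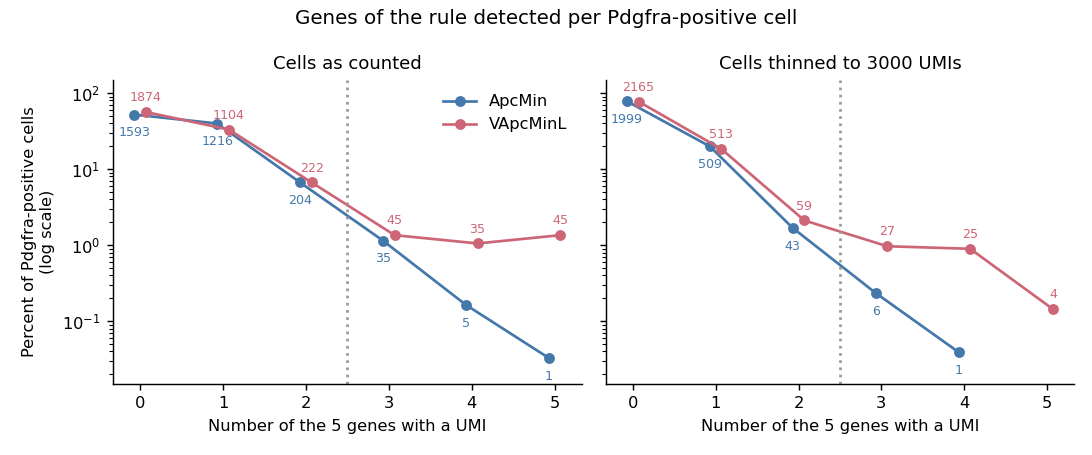
Share of Pdgfra-positive cells (percent, log axis) against how many of the 5 genes Wif1, Itgbl1, Masp1, Ntrk2 and Inhba had a UMI, as counted (left) and with each cell thinned to 3000 UMIs (right), for ApcMin (blue) and VApcMinL (red); numbers are cells, and members lie right of the dotted line. As counted, both libraries had 6.68% of cells with 2 genes, but 1 against 45 cells with all 5.

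Among the genes of the rule, Wif1 separated the libraries. Wif1 had 4 UMIs in 1 of the 41 ApcMin members, 6.53 CPM (UMIs of the gene per 1000000 UMIs of all genes, summed over the cells: 612891 UMIs in ApcMin and 1833606 in VApcMinL members). In the VApcMinL members it had 1532 UMIs in 83 of 125 cells, 836 CPM, with a median of 5.36 and a highest value of 56.9 UMIs per 10000 in a cell. A single ApcMin member thus carried Wif1, while most VApcMinL members did. With cells thinned to 3000 UMIs, Wif1 was found in 54.4% of the VApcMinL members and 0.375% of the other cells. Inhba stood at 60.4 CPM in ApcMin and 258 CPM in VApcMinL members. Itgbl1 (295 and 314 CPM), Masp1 (210 and 185 CPM) and Ntrk2 (385 and 466 CPM) differed by less than 1.5-fold between the libraries. Other Pdgfra-positive cells had 4.35 and 2.72 CPM of Wif1, 9.64 and 9.13 of Itgbl1, 1.71 and 6.38 of Masp1, 64.6 and 57.7 of Ntrk2 and 8.10 and 8.26 of Inhba. Ntrk2 had a UMI in 37.6% and 31.0% of the other cells. These genes define the members, so the contrast with other cells is set by the rule. Their levels between the libraries depend on it too. Members without Wif1, 40 of the 41 in ApcMin, had to carry at least 3 of the other 4 genes. Cells with at least 3 Cd79a UMIs and no Pdgfra, which should lack these genes, had a Wif1 UMI in 0% of 904 and 580 cells and a Ntrk2 UMI in 0.332% and 0.172%.

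Wif1 RNA outside the members was sparse but not absent. In ApcMin, 4 other Pdgfra-positive cells held 183 Wif1 UMIs, of which 172 lay in 1 cell, and 2 of the 4 also held Epcam. In VApcMinL, 26 other Pdgfra-positive cells held 100 Wif1 UMIs. Cells without Pdgfra had Wif1 in 1 of 3158 and 5 of 2791 cells. Pdgfra-positive cells with Ptprc or Pecam1 had it in 2 of 387 and 14 of 453 cells.

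The regulatory sequence next to Wif1 and Inhba is shown because these are the genes of the rule that differed most between the libraries. The stretches end at the base before the annotated start of the gene and are from RefSeq, build GRCm38.p6, Wif1 at chr10:121033754-121033959 and Inhba at chr13:16011601-16011850, both on the plus strand. They are upstream of the transcribed gene, Wif1 itself lying at 121033960 to 121100650 of chromosome 10 and Inhba at 16011851 to 16031621 of chromosome 13.
Wif1: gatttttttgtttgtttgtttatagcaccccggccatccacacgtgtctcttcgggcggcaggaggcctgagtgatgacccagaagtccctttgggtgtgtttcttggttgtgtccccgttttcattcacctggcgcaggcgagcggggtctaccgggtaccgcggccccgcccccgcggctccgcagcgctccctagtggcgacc
Inhba: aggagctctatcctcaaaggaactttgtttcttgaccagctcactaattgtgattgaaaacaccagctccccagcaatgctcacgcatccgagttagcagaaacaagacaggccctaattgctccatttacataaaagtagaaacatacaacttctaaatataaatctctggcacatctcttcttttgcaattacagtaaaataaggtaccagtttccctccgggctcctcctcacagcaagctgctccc
The letters searched were CTTTGAT and CTTTGAA, forms of the core site of TCF/LEF factors, and their reverse complements ATCAAAG and TTCAAAG, so both strands. Matches would be in capitals, and neither sequence holds any. Other forms of the core site were not searched. Of the 5 genes and the 15 leading genes given below, 13 had a RefSeq promoter, and 0 of these 13 held the letters in the 250 bases before the start. Over all 32851 promoters of the table, 7.48% held them.

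In both libraries members were near each other in genes the rule did not use. On 20 principal components of 2000 variable genes with the genes of the rule left out, the mean share of members among the 20 nearest neighbours of a VApcMinL member was 69.9%, where members made up 3.76% of the cells. For other Pdgfra-positive cells of that library it was 1.05%. In ApcMin the mean was 19.9%, where members made up 1.34%, and 0.843% for the other cells. Of the 125 VApcMinL members, 98 had members as at least 50% of their neighbours and 11 had none. Of the 41 ApcMin members, 7 had at least 50% and 14 had none. The share of members among neighbours depends on how many members a library has, 125 against 41. It is therefore set beside the member share of its own library and not compared between libraries.

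The share grew with the number of genes. VApcMinL members with 3, 4 and 5 genes had means of 43.9%, 81.1% and 87.2%, and cells with 2 genes, just outside the rule, had 6.15%. ApcMin members with 3 genes had 17.4%, the 5 with 4 genes 35.0% and the 1 with all genes 30.0%. Members with exactly 3 genes thus had fewer members around them than the rest in both libraries, and they made up 35 of the 41 ApcMin members but 45 of the 125 VApcMinL members.

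**Figure D2:**
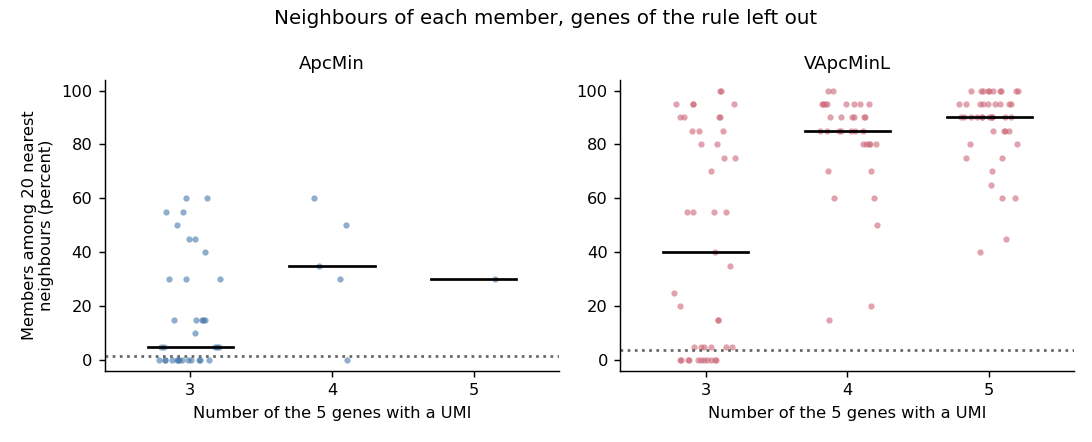
Percent of members among the 20 nearest neighbours of each member (points), by how many of the 5 genes the cell held, with the median as a black bar and the share of members among all Pdgfra-positive cells of the library as a dotted line; genes of the rule were left out of the distances. VApcMinL members with 4 or 5 genes mostly lie above 80%, and many members with 3 genes lie near 0 in both libraries.

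The label of these cells names a place under the epithelium. The best known mesenchymal cells there, the telocytes or subepithelial myofibroblasts, are marked by Foxl1 and F3 (CD142), along with high Pdgfra, and the data did not show these marks. Foxl1, a transcription factor, had 0 UMIs in the ApcMin members, where 3 UMIs would be 4.89 CPM, and 9 UMIs (4.91 CPM) in the VApcMinL members against 3.54 CPM in the other cells. F3, tissue factor, was lower in the members, at 45.7 against 99.7 CPM in ApcMin (ratio 0.458, 0.304 to 0.664) and 47.4 against 107 CPM in VApcMinL (0.444, 0.354 to 0.548). Pdgfra stood at 613 against 624 CPM and 740 against 626 CPM. Of 25 genes of a telocyte list, 20 passed the minimum of 100 UMIs over the Pdgfra-positive cells of each library. Of these, Sox6 was at least 2-fold higher in both libraries (ratios 6.04 and 4.06), and F3 and Fgd4 were at most 0.5-fold. The medians of the list were −0.57 and −0.25 on the log2 scale, beside −0.08 and −0.16 over all genes tested. The cells are therefore called here by their genes and not by a position, which dissociated cells do not give.

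Marker lists of other cell types were measured in the same way. Grem1 and Ackr4, which define trophocytes below the crypts, stood at 734 and 129 CPM in ApcMin members against 618 and 215 CPM in other cells. In VApcMinL they stood at 155 and 39.3 CPM against 774 and 211 CPM. Adamdec1, the leading gene of lamina propria fibroblasts, was lower in members of both libraries, with 217 against 1141 CPM and 487 against 3094 CPM. Of the 133 and 893 Adamdec1 UMIs of the members, 94.7% and 83.0% lay in 3 cells. Pi16, which marks adventitial fibroblasts, stood at 359 against 270 CPM in ApcMin, in 24 of 41 members with 74.5% of its UMIs in 3 cells, and at 77.4 against 115 CPM in VApcMinL, in 38 of 125 members. Of 9 adventitial genes 0 were at least 2-fold higher in both libraries and Ly6c1 was at most 0.5-fold in both (0.452-fold and 0.126-fold), with list medians of −0.33 and −1.27 on the log2 scale. Of 10 contractile genes of smooth muscle that passed the minimum, Des (2.55-fold and 6.16-fold) and Mylk (2.53-fold and 2.28-fold) were at least 2-fold higher in both libraries. Myh11, which defines mature smooth muscle, had 0 UMIs in ApcMin members and 16 in VApcMinL members, all of these in 3 cells. Acta2, smooth muscle actin, had 26.1 against 39.3 CPM in ApcMin and 148 against 57.6 CPM in VApcMinL. Rgs5 of pericytes was lower, at 0.337-fold and 0.192-fold. Blood endothelial genes summed to 26.1 and 19.6 CPM in members against 18.3 and 23.5 CPM in other Pdgfra-positive cells, and glia and neuron genes to 1.63 and 2.73 against 7.15 and 14.7 CPM. The 5 erythroid genes summed to 3074 and 7242 CPM in members and to 20913 and 4602 CPM in other cells. The 10 epithelial genes summed to 22.8 CPM in ApcMin members and 159 CPM in VApcMinL members, against 259 and 1299 CPM in the other Pdgfra-positive cells.

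Members differed from the other Pdgfra-positive cells in a limited set of genes. Of 11413 genes tested, 126 (1.1%) had a CPM at least 2-fold higher in the members of both libraries and 331 (2.9%) at most 0.5-fold. Within single libraries 336 (2.94%) and 379 (3.32%) were at least 2-fold higher, and 1023 (8.96%) and 1237 (10.8%) at most 0.5-fold. The 15 genes outside the rule with the largest ratio, taken as the smaller of both libraries, were Ctla2a, Tmem132c, Lamc3, Epha4, Notum, Plxna4, Dio2, Cpxm2, Thy1, Iyd, Lrrc55, Prdm6, Fbn2, Cd59a and Meox2.

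Ctla2a, a cysteine protease inhibitor, had the largest ratios. In ApcMin it stood at 83.2 CPM in members and 1.496 CPM in other cells (55.6-fold, 37.7 to 81.7), and in VApcMinL at 143 against 1.63 CPM (87.4-fold, 65.8 to 118). It was carried by 9 of 41 and 51 of 125 members. Empty droplets held 101 and 87.6 CPM of Ctla2a, more than other Pdgfra-positive cells did, and cells with Cd79a held a UMI in 1.11% and 1.38%.

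**Figure D3:**
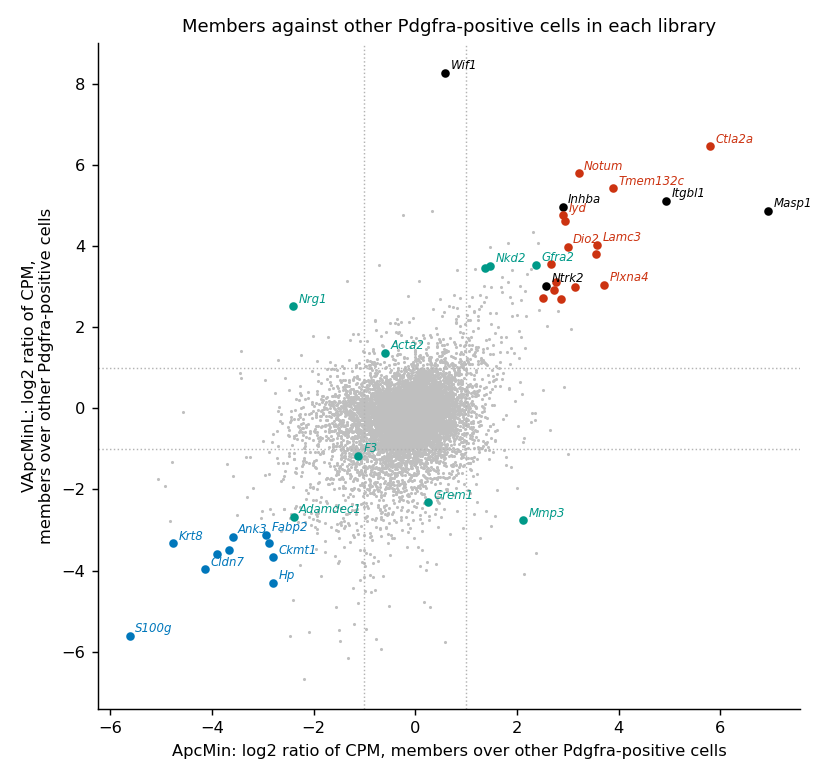
Each point is a gene with at least 100 UMIs over the Pdgfra-positive cells of each library: log2 ratio of CPM in members over other Pdgfra-positive cells in ApcMin (x axis) and VApcMinL (y axis), with dotted lines at 2-fold. Black points are genes of the rule, red the 15 leading genes outside it, blue the 10 with the smallest ratios and green other genes of the text, with most points named. Ctla2a, Tmem132c and Notum lie at the upper right, while Nrg1 and Mmp3 lie on opposite sides in the libraries.

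Epha4, an ephrin receptor, had 235 against 20.0 CPM in ApcMin (11.7-fold, 9.75 to 14.002) and 286 against 20.4 CPM in VApcMinL (14.05-fold, 12.5 to 15.7), and was carried by 28 of 41 and 99 of 125 members. Thy1, the surface protein CD90, had 313 against 40.8 CPM and 457 against 18.8 CPM. Plxna4, a semaphorin receptor, had ratios of 13.2 and 8.26, but 88.9% of its 18 UMIs in ApcMin lay in 3 cells. Cd59a, which blocks the terminal complement complex, had ratios of 6.39 and 11.7. Of these, Epha4 was spread over most members of both libraries, with medians of 1.52 and 2.44 UMIs per 10000 in a cell.

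Some Wnt inhibitors other than Wif1 were higher in members, while the summed CPM of the inhibitors was not. Notum, an enzyme that inactivates Wnt ligands by removing their lipid, had 35.9 against 3.87 CPM in ApcMin (9.27-fold, 5.65 to 14.5) and 130 against 2.34 CPM in VApcMinL (55.4-fold, 43.1 to 71.7). It was found in 8 of 41 and 67 of 125 members. Of 11 secreted inhibitors, 7 passed the minimum apart from Wif1, and Notum and Sfrp4 were at least 2-fold higher in both libraries, with none at most 0.5-fold in both. Counted in VApcMinL by itself, 4 of the 7 were at least 2-fold higher and 2 at most 0.5-fold. The list medians were 0.10 and 1.14 on the log2 scale. The 10 inhibitors outside the rule summed to 1764 CPM in members against 1781 in other cells of ApcMin, and 1240 against 2395 in VApcMinL. The ratios of Sfrp4, a frizzled-related protein, were 2.06 and 2.21, resting on 17 and 18 UMIs. Nkd2, an intracellular Wnt antagonist, had 26.1 against 9.43 CPM (2.77-fold, 1.57 to 4.55) and 90.0 against 7.93 CPM (11.3-fold, 9.32 to 13.8). Of the 11 feedback targets of Wnt signalling that passed, Nkd2 and Tcf7 were at least 2-fold higher in both libraries, Tcf7 by 2.04-fold (0.414 to 6.14, from 3 UMIs) and 3.34-fold (1.83 to 5.70). Axin2, the most general of these targets, had ratios of 1.21 (0.738 to 1.88) and 1.93 (1.49 to 2.46). Ligands were not among the genes higher in both libraries. Of 6 Wnt ligands that passed, none was higher in both libraries and Wnt11 was lower (0.427-fold and 0.254-fold, 4 and 7 UMIs). Counted in VApcMinL by itself, 1 was at least 2-fold higher and 3 at most 0.5-fold. All 19 Wnt ligands summed to 132 CPM in members against 220 in other cells of ApcMin, and 284 against 191 in VApcMinL. Of the 3 R-spondins, Rspo1 was lower (0.402-fold and 0.167-fold, 6 and 7 UMIs).

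Few genes of the TGF-beta and BMP families were past the fold in both libraries. Of 18 genes of TGF-beta and activin signalling that passed apart from Inhba, Tgfbi, a secreted matrix protein induced by TGF-beta, was higher in both libraries and none was lower in both. Tgfbi had 315 against 57.9 CPM (5.44-fold, 4.67 to 6.30) and 340 against 63.5 CPM (5.36-fold, 4.90 to 5.86), in 25 of 41 and 95 of 125 members. Of 9 BMP antagonists, Chrdl1 (2.76-fold and 2.53-fold) and Nbl1 (2.34-fold and 2.12-fold) were higher in both. Nbl1 was abundant, at 736 and 805 CPM. Of 8 BMP ligands, 0 were at least 2-fold higher in both libraries and 0 at most 0.5-fold in both. Counted in VApcMinL by itself, 3 antagonists, Chrdl1 and Nbl1 among them, and 3 ligands were at least 2-fold higher, and 3 and 2 at most 0.5-fold. Gli1, the Hedgehog target, had ratios of 1.46 (0.910 to 2.22) and 1.72 (1.35 to 2.17), and Foxf2, a Fox factor of this pathway, was lower at 0.106-fold (0.00267 to 0.590, from 1 UMI) and 0.438-fold (0.276 to 0.660).

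A receptor and a ligand of neurotrophic signalling went with Ntrk2. Among the genes of this list apart from Ntrk2, Gfra2 and Nrtn were at least 2-fold higher in both libraries and Ret was at most 0.5-fold in both. Gfra2, the co-receptor that binds neurturin, had 78.3 against 15.1 CPM (5.20-fold, 3.79 to 6.98) and 148 against 12.7 CPM (11.6-fold, 9.96 to 13.5). Nrtn, neurturin itself, had 5 UMIs in ApcMin and 45 UMIs in VApcMinL members, with ratios of 2.09 (0.671 to 4.99) and 5.74 (4.02 to 8.04). Ret, the signalling receptor that acts with Gfra2, had 1 UMI in the ApcMin members and 0 in the VApcMinL members.

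Basement membrane genes split. Of 19 that passed, Lamc3, Col4a3, Col4a4 and Col4a5 were at least 2-fold higher in both libraries and Lama1 was at most 0.5-fold (1 and 6 UMIs). Lamc3, a laminin gamma chain, had 75.1 against 6.29 CPM (11.9-fold, 8.52 to 16.4) and 99.3 against 6.08 CPM (16.3-fold, 13.4 to 20.0). The chains Col4a3, Col4a4 and Col4a5, which assemble into 1 type of collagen IV molecule, had ratios of 4.44, 4.03 and 2.60 in ApcMin and of 7.35, 4.93 and 11.0 in VApcMinL. The list as a whole had medians of 0.01 and −0.39 on the log2 scale, so these 4 genes stood apart from most of it. Col6a6 was the only one of 14 interstitial collagens at least 2-fold higher in both (3.71-fold and 2.80-fold), and the integrin chain Itga8 the only one of 11 integrins (3.23-fold and 3.37-fold). Fbn2, a fibrillin, had ratios of 7.26 and 6.49.

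Complement and transcription factor genes completed the set. C2, a protease of the classical and lectin pathways in which Masp1 acts, had ratios of 2.15 and 3.36. Among 9 regional transcription factors that passed, Osr2 (3.25-fold and 9.36-fold), Tbx2 (4.10-fold and 3.75-fold) and Isl1 (2.15-fold and 2.75-fold) were higher in both. Prdm6 and Meox2, transcription regulators of the leading set, had ratios of 6.67 and 7.51 and of 5.69 and 6.56. Of 16 Hox genes, 0 were at least 2-fold higher and 5 at most 0.5-fold in both, such as Hoxc4 (0.129-fold, 0.0155 to 0.465, and 0.321-fold, 0.189 to 0.509). In the EGF family, Nrg2 was higher (3.75-fold and 10.6-fold, 6 and 63 UMIs) and Ereg lower (0.405-fold and 0.137-fold). Dio2 and Iyd, both deiodinases that act on iodinated tyrosines or thyroid hormone, had ratios of 7.99 and 15.8 and of 7.54 and 27.0. In ApcMin, however, 12 Iyd UMIs lay in the 1 member with all 5 genes, and the other 40 members held 6.

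The 10 genes with the smallest ratios were S100g, Cldn7, Rbp2, Krt19, Krt8, Ank3, Fabp2, Fabp1, Hp and Ckmt1, most of which belong to the intestinal epithelium. Each had 1 to 3 UMIs in the ApcMin members. The ratio of S100g, a calcium-binding protein of enterocytes, was 0.0203 (0.000515 to 0.113) and 0.0205 (0.00423 to 0.0601), and that of Krt8 0.0369 (0.000934 to 0.206) and 0.0993 (0.0648 to 0.146). The other Pdgfra-positive cells reached 259029 UMIs in a barcode and held more Epcam, at 46.1 against 1.63 CPM in ApcMin and 122 against 18.0 CPM in VApcMinL. With every cell that held an Epcam UMI left out, the ApcMin ratios of Cldn7, Krt19 and Ckmt1 turned to 1.69, 1.08 and 3.01.

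The levels of several genes outside the rule went with the number of the rule's genes in a cell. Thy1 in VApcMinL stood at 15.6, 18.9, 40.2, 279, 514 and 556 CPM in cells with 0, 1, 2, 3, 4 and 5 genes. Notum stood at 2.495, 1.09, 7.27, 57.2, 195 and 141 CPM. Col4a5 stood at 25.8, 41.9, 78.9, 268, 430 and 467 CPM. The largest step of these genes lay between 2 and 4 genes, and cells with none or 1 gene stayed under 50 CPM. Grem1 stood at 546, 1032, 1123, 452, 13.6 and 21.5 CPM in the same order, and F3 at 86.1, 126, 162, 100, 15.6 and 28.3 CPM, so both were highest in cells with 2 genes and low in those with 4 and 5. In ApcMin Grem1 stood at 455, 793, 750 and 847 CPM in cells with 0 to 3 genes and had 0 UMIs in those with 4 or 5.

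The 6 ApcMin cells with 4 or 5 genes were set beside the 80 VApcMinL cells with as many. Ctla2a stood at 342 CPM (exact Poisson interval 227 to 494) in these 6 cells and 176 (153 to 201) in the 80. Notum stood at 183 (103 to 302) and 163 (142 to 187), Gfra2 at 147 (75.8 to 256) and 162 (140 to 185), and Acta2 at 159 (84.6 to 272) and 158 (137 to 182). Epha4 (611 and 349 CPM), Thy1 (770 and 539 CPM) and Tgfbi (843 and 384 CPM) were higher in the ApcMin cells, and Dio2 stood at 24.4 (2.96 to 88.3) against 95.5 CPM (79.2 to 114). Grem1 had 0 UMIs in these ApcMin cells, an upper bound of 45.1 CPM, and 18.3 CPM in the VApcMinL cells. The counting intervals of Notum, Gfra2, Acta2 and Dio2 overlapped between the libraries and those of Ctla2a, Epha4, Thy1 and Tgfbi did not. They leave out the spread between cells. The 1 ApcMin cell with all 5 genes held 23 of the 50 Epha4 UMIs and 0 of the 28 Ctla2a UMIs. The 6 cells of 1 library are too few to go further, and no library difference is read from the intervals. Nrg1 (12.2 and 189 CPM), Inhba (134 and 317 CPM) and Wif1 (48.9 and 1148 CPM) were lower in the ApcMin cells, with intervals of 0.309 to 68.1 and 165 to 214 for Nrg1.

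**Figure D4:**
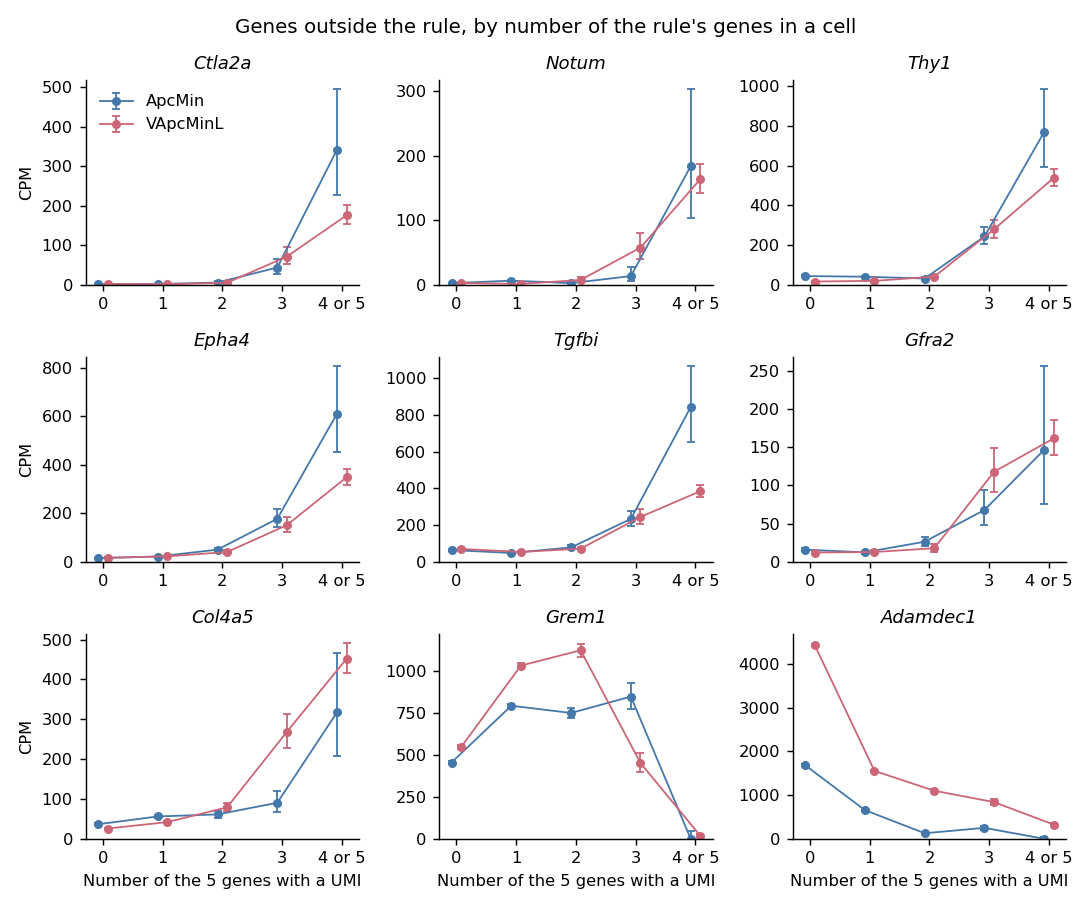
CPM of 9 genes outside the rule (y axes, from 0) in Pdgfra-positive cells with 0, 1, 2, 3 and 4 or 5 of the 5 genes, in ApcMin (blue) and VApcMinL (red); bars are exact Poisson 95% intervals, which cover counting error only, and the last ApcMin point rests on 6 cells. Thy1 in VApcMinL went from 15.6 to 539 CPM and Grem1 stood at 546 CPM with 0 genes, 1123 CPM with 2 and 18.3 CPM with 4 or 5.

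The members were set beside 3 other groups of Pdgfra-positive cells. The groups were cells with Grem1 and Ackr4 (491 and 523 cells), cells with at least 3 Adamdec1 UMIs (396 and 990) and cells with at least 2 of Scg2, Chodl and Fibin (107 and 74), leaving out cells in more than 1 group. Lamc3, Thy1 and Gfra2 were higher in members than in each of these groups in both libraries. Notum, at 35.9 CPM in ApcMin members, was 0.284 CPM in Grem1 and Ackr4 cells and 0 in Adamdec1 cells but 31.5 CPM in Scg2 Chodl Fibin cells, and in VApcMinL 130 against 38.4 CPM in the last of these. Epha4 was likewise shared in part, with 56.6 and 60.8 CPM in Scg2 Chodl Fibin cells. Nrg1 in VApcMinL members (155 CPM) lay above the Adamdec1 cells (84.8 CPM), while in ApcMin the Adamdec1 cells had 117 CPM and the members 3.26 CPM. These groups were defined by genes of their own, so their levels are a description.

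**Figure D5:**
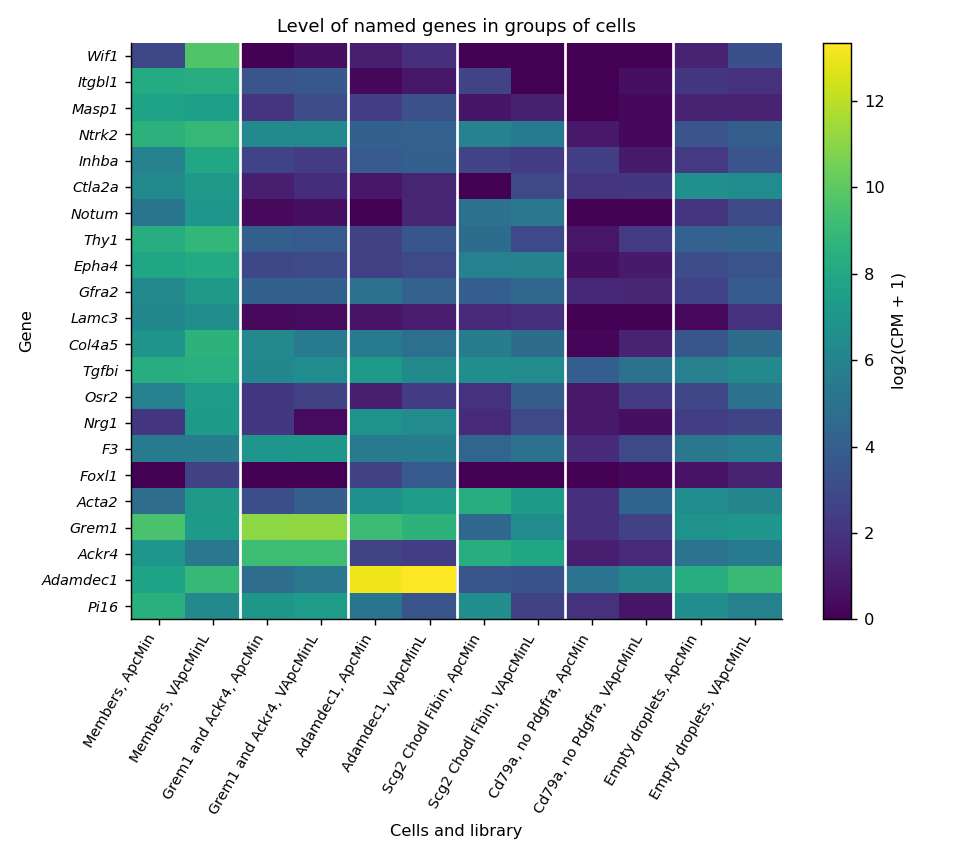
Heat map of log2(CPM + 1) of 22 genes (rows) in members, 3 other groups of Pdgfra-positive cells, cells with Cd79a and without Pdgfra, and empty droplets, each in ApcMin (left column of a pair) and VApcMinL (right). Wif1 is bright in the VApcMinL members alone (836 against 6.53 CPM), while Itgbl1, Epha4, Thy1 and Lamc3 are bright in the members of both libraries.

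Between the libraries, members differed in more genes than the other Pdgfra-positive cells did. Of 5910 genes with at least 50 UMIs over all members, 343 (5.8%) were at least 2-fold higher in VApcMinL members and 196 (3.32%) at most 0.5-fold. The same ratio in the other Pdgfra-positive cells was at least 2 for 71 of 5907 genes (1.2%) and at most 0.5 for 27 (0.457%). These other cells hold many times more UMIs, so their ratios carry less counting error. Of the 343 genes 46 (13.4%) also passed in the other cells, and of the 196 genes 11 (5.61%). In members without a Wif1 UMI, 40 in ApcMin and 42 in VApcMinL, 126 and 86 of 3629 genes passed. Marker lists moved between the members of the libraries too. Of 9 adventitial genes 8 were at most 0.5-fold in VApcMinL members (list median −1.99 on the log2 scale), of 9 contractile genes 6 were at least 2-fold higher (1.09), and of 12 telocyte genes 6 were at least 2-fold higher and 1 at most 0.5-fold (0.94), beside −0.04 over all genes tested. Their part in the other differences was not tested.

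Outside the rule, Nrg1, a ligand of ErbB receptors, had the largest ratio. It had 2 UMIs in 2 ApcMin members (3.26 CPM) and 285 UMIs in 67 VApcMinL members (155 CPM), a ratio of 47.6 (13.1 to 395), while in other Pdgfra-positive cells the ratio was 1.58. Gdf15, a stress-induced cytokine of the TGF-beta family, had 1.63 against 48.0 CPM (29.4-fold, 5.14 to 1175, and 1.02-fold in other cells), spread over 26 VApcMinL members. The rest of the 6 highest genes were of epithelium: Tff2 (32.8-fold, 5.74 to 1307), Rbp2 (29.1-fold, 5.08 to 1162), Apoa1 (29.1-fold, 9.84 to 142) and Reg3b (27.9-fold, 11.9 to 86.5), each with 1 to 5 UMIs in the ApcMin members. Rbp2 and Apoa1 were also higher in the other Pdgfra-positive cells of VApcMinL, by 23.4-fold and 15.6-fold, and in its empty droplets, at 3271 against 122 CPM and 4848 against 284 CPM. Of the Tff2 and Reg3b UMIs of the VApcMinL members, 98.0% and 82.3% lay in 3 cells. With 5% of the UMIs of each sum taken off in the proportions of the empty droplets, the ratio was 31.7 for Nrg1, 9.57 for Gdf15, 10.6 for Tff2 and 15.8 for Reg3b, and Rbp2 and Apoa1 gave no ratio.

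Of the 6 lowest genes, Mmp3, a stromal metalloproteinase, had 646 CPM in ApcMin and 20.7 CPM in VApcMinL members (ratio 0.0321), with 77.5% of its ApcMin UMIs in 3 cells. Col8a1, a short-chain collagen, had 189 against 16.9 CPM (0.0893) and Pla1a, a phospholipase, 162 against 15.8 CPM (0.0979), with 17 and 21 of 41 ApcMin members carrying a UMI. Adgrd1 (0.0760) and Dpp4 (0.0988) had 68.2% and 90.9% of their ApcMin UMIs in 3 cells, and all 78 Thbs4 UMIs lay in 1 cell. The ratios of these genes in other Pdgfra-positive cells were 0.950 for Mmp3, 0.811 for Col8a1 and 0.543 for Pla1a. In the 6 ApcMin cells with 4 or 5 genes, Mmp3 was 0 and Col8a1 24.4 CPM, against 746 and 215 CPM in those with 3 genes. Within the ApcMin members, Mmp3 and Col8a1 RNA thus lay mainly in those with 3 genes, and most Mmp3 UMIs in 3 cells. ApcMin cells with 2 genes, outside the members, also held both, at 156 and 152 CPM.

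Within VApcMinL, the 83 members with a Wif1 UMI and the 42 without were compared in the same way. Of 2691 genes with at least 100 UMIs, 59 (2.19%) were at least 2-fold higher with Wif1 and 64 (2.38%) at most 0.5-fold. The 4 smallest ratios were those of Cxcl13, a B cell chemokine (0.00475, 0.000975 to 0.0140), Adamdec1 (0.0227), Grem1 (0.0884) and Mgp, matrix Gla protein (0.115). Cxcl13 was found in 15 of the 125 members, with 72.2% of its UMIs in 3 cells. Adamdec1 was found in 17 of the 83 and 13 of the 42, and Grem1 in 7 and 13. The 4 largest were those of Reg3b (8.24), Iyd (5.77), Sis (4.48) and Aqp1 (4.24), of which Reg3b and Sis are epithelial. Notum was found in 52 of the 83 and 15 of the 42, Nrg1 in 55 and 12, Thy1 in 70 and 23, and Col4a5 in 75 and 27. Tgfbi, with a ratio of 1.03, and Gfra2, with 0.855, lay within 2-fold. The median depth was 14165 UMIs with Wif1 and 15247 without, so members with Wif1 were not the deeper ones.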

How the data were processed

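Single cells from 2 libraries of sorted lamina propria were analysed, each with 1 matrix of counts. The deposited counts are UMIs per gene and barcode, made by the authors with Cell Ranger on mm10 (GRCm38), unfiltered and not normalized. Their methods name release 2.1.1 and the matrix headers name 3.1.0. Of 6794880 barcodes and 31053 genes per library, with 93203061 and 101609269 UMIs in all, cells with at least 3000 UMIs and at most 20% mitochondrial UMIs were kept (6599 and 6569). Doublets were left in. Scrublet called 0 and 1 by itself, and leaving out the highest scores at 0.8% per 1000 cells was an alternative. These scores took in 3 of the 41 ApcMin members (7.32%) and 14 of the 125 VApcMinL members (11.2%), against 5.27% and 5.25% of all cells.

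UMIs were summed over cells of a group and divided by the total (CPM). Genes with at least 100 UMIs over the Pdgfra-positive cells of each library were compared between members and others, and genes with at least 50 UMIs over all members between libraries. A count of 0 was set at 3 counts where a ratio was formed. A gene was counted at a ratio of at least 2 or at most 0.5. Intervals are Clopper-Pearson, exact Poisson and exact conditional binomial, and cover counting error only. Thinning drew 3000 UMIs per cell. Tools were scanpy 1.11.5, scipy 1.17.1, matplotlib 3.10.9, pandas 2.3.3 and numpy 2.4.6 in Python 3.11.15, and the calculations were tested on simulated data. Gene positions are from GENCODE vM21 on GRCm38.

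The members, the gene lists and the rule for named genes were chosen with earlier results of these data known. The rule took the genes of the membership rule, the 15 largest and 10 smallest ratios in both libraries, the 6 largest and 6 smallest between libraries, the 4 largest and 4 smallest by Wif1, and per list up to 5 genes past the fold in both libraries and its defining genes. In these, mitochondrial, Xist, Y-linked, immunoglobulin and hemoglobin genes were left out. The genes printed are part of those the rule gave, chosen after their values were seen, and alternatives were recomputed for the printed genes. Some results that the rule gave are not reported here.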

Additional observations from a re-analysis of the deposited data

Results flagged for a closer look

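In 4 flagged genes the difference between members and other Pdgfra-positive cells ran in opposite directions in the libraries, by at least 2-fold each way. These are not all such genes. Mmp3 and Col8a1, given above, were also at least 2-fold higher in ApcMin members and at most 0.5-fold in VApcMinL members. The difference between the libraries was not tested, since each genotype had 1 library. Nrg1 had a ratio of 0.189 (0.0228 to 0.685) in ApcMin and 5.69 in VApcMinL, with 2 and 285 UMIs in the members. Cxcl14, a chemokine of subepithelial cells, had a ratio of 2.24 in ApcMin and 0.163 in VApcMinL, with 71.0% of its 186 ApcMin UMIs in 3 cells. Ltbp2, a binding protein of latent TGF-beta, had 0.409 and 3.20, and Nes, the intermediate filament nestin, 0.260 and 2.22, each with 1 UMI in the ApcMin members. The ApcMin intervals of Ltbp2 (0.0103 to 2.31) and Nes (0.00656 to 1.46) include 1.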

How the results depend on the processing

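No paired analysis was possible because there was 1 library per genotype. The member share ratio of 2.80 ran from 1.24 to 12.2 over 10 alternatives, always above 1, and 6 kept it within its interval: it was 1.30 with at least 2 of the 5 genes, 12.2 with at least 4, 1.24 with at least 2 of the 4 genes other than Wif1, and 7.33 with thinned cells. Genes at least 2-fold higher in members (126 as reported) numbered 49 and 192 with at least 2 and 4 genes, 46 without Wif1, 54 with a gene minimum 5 times as high and 298 with a minimum of 10 UMIs. Genes at most 0.5-fold (331) numbered 201 with at least 2 genes, 206 without Wif1, 97 thinned, 195 with 5% free RNA subtracted and 151 with the higher minimum. Genes higher in VApcMinL members (343) numbered 629 with at least 4 genes, 87 thinned, 83 and 1040 with the higher and lower minimum, and 126 in members without Wif1, an alternative added after seeing the data. Genes lower there (196) numbered 21 thinned, 41 and 747 with those minima, and 86 without Wif1. The number of genes tested changed too, so these counts are not shares of 1 set of genes. Between libraries it was 5910 as reported, 3709 with at least 4 genes, 532 thinned and 3629 without Wif1. It was 1452 and 10627 with the higher and lower minimum. Between members and other cells it was 11413 as reported, 7602 thinned, and 7669 and 15245 with those minima. The cause of the changes was not tested.

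Of the printed genes, these changed direction. With at least 2 of the 5 genes, the ApcMin ratios of members over other cells were 1.12 for Ank3, 4.99 for Hp and 1.55 for Gdf15, the VApcMinL ratios 1.11 for Mmp3, 1.04 for Col8a1, 1.004 for Grem1, 1.01 for Mgp, 1.15 for F3 and 1.05 for Rspo1, and the ratio between libraries 0.951 for Gdf15. With at least 2 of the 4 genes other than Wif1 the same were 1.12, 5.003 and 1.53, then 1.17, 1.07, 1.04, 1.03, 1.07 and 1.09, and 0.942. With at least 4 genes the ApcMin ratios were 0.236 for Mmp3, 0.269 for Col8a1, 0.892 for Sfrp4 and 0.466 for Isl1. Thinned, Fabp2 was 4.99 in ApcMin, and Sis 1.39 and Chrdl1 0.815 in VApcMinL. Without cells that held Epcam, ApcMin gave 1.69 for Cldn7, 1.08 for Krt19, 3.01 for Ckmt1 and 2.22 for Reg3b, and VApcMinL 1.32 for Sis. The mean of each cell's CPM gave 1.14 for Krt19 in ApcMin.

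The ApcMin members hold 612891 UMIs in 41 cells against 1833606 in 125, so a gene with 0 UMIs may lie at up to 4.89 and 1.64 CPM, and ApcMin ratios of genes with few UMIs have wide intervals.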

Other observations

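One gene under the minimum of 100 UMIs per library is named here after its values were seen. Ano1, a chloride channel known from interstitial cells of Cajal, had 17.9 against 0.998 CPM in ApcMin and 43.6 against 3.22 CPM in VApcMinL, in 5 and 34 members. Kit, which defines those cells, had 0 UMIs in the members of both libraries.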
